A study of Mus musculus with 2 samples.

Results

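The 5 miRNA genes described here are best known from endocrine cells, gut and liver, and were read in the hindbrain of the mouse embryo. They are Mir375, Mir192, Mir194-1, Mir194-2 and Mir122, chosen by name from the 1973 miRNA genes of the deposited tables and matched through their Ensembl identifiers to GENCODE M21 symbols. No measured value entered the choice by name, although earlier results of these data were known when the members were proposed. MicroRNAs of under 30 bases were sequenced from hindbrain of B6NCrl embryos at embryonic day 12.5. Both libraries belong to the same untreated group, with replicate 1 made from a pool of 120 embryos and replicate 2 from a pool of 88, male and female together. No condition is compared, so the questions are how far these miRNAs are expressed outside their main organs, how Mir375 stands against the gut and liver genes, and how closely the libraries match.

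MicroRNAs are short RNAs cut from hairpin precursors that guide repression of messenger RNAs, mainly through the seed at bases 2 to 8. miR-375 is known from pancreatic islets and the pituitary, where it restrains hormone secretion, and it also occurs in other epithelial and neuroendocrine cells. miR-192 and miR-194 are made from shared precursors in intestine, liver and kidney epithelium, and miR-122 is the dominant miRNA of hepatocytes.

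Sequences were available in RefSeq (GRCm38.p6) for 4 of the 5 members, with no entry for Mir122. The mature sequences are shown because they bear on which reads can be assigned to which gene. Capitals mark the seed, and for Mir375 the sequence and seed are those of the 5p arm and do not describe the 3p arm.
miR-375-5p: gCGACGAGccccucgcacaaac
miR-192-5p: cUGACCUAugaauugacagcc
miR-215-5p: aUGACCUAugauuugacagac
miR-194-5p: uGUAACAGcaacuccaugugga
miR-194-1-3p: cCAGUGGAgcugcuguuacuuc
miR-194-2-3p: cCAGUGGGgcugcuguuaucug
miR-192-5p and miR-215-5p, the product of the neighbour of Mir194-1, had the same seed. Over their 21 bases they differed at 3 positions, C1A, A12U and C20A, counted from 1 at the 5′ end of miR-192-5p with its base first. No other mature miRNA in the RefSeq table had the seed of miR-192-5p or miR-194-5p apart from miR-215-5p.

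The miR-194 hairpins are shown whole, with miR-194-5p in capitals, because this arm is the same in both.
Mir194-1: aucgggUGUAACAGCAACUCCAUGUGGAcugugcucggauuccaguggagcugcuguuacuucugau
Mir194-2: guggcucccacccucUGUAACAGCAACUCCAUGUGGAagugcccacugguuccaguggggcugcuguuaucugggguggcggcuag
The longest run shared by these hairpins was 22 bases, which is the whole of miR-194-5p and nothing beyond it. A read of exactly those 22 bases therefore matches both copies, while a read that extends past either end, or comes from the 3p arm, can differ between them. The 3p arms differed at 4 of 22 positions (A8G, C19U, U20C and C22G, counted from the 5′ end of miR-194-1-3p with its base first). By contrast, the hairpin of Mir375 shared no run of 20 bases with any other annotated miRNA hairpin, and the same held for Mir192 and Mir122. The hairpin of Mir375 is shown because this gene gave most of the counts of the 5 members, with the arm listed in RefSeq in capitals. Counts hold both arms, so the capitals do not mark which arm gave the reads.
Mir375: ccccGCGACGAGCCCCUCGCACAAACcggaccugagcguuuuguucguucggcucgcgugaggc

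The positions are on mm10, the GRCm38 assembly, from GENCODE M21. Mir375 (ENSMUSG00000065616.2) lies on the minus strand of chromosome 1 from 74900658 to 74900721, between genes, 1349 bases from Cfap65 and 7514 bases from the crystallin gene Cryba2. Mir192 (ENSMUSG00000065523.1) and Mir194-2 (ENSMUSG00000065582.1) lie on the plus strand of chromosome 19, from 6264844 to 6264932 and from 6264643 to 6264728. They are 115 bases apart and also outside annotated genes, with the autophagy gene Atg2a nearest. Mir194-1 (ENSMUSG00000065581.1) is on the plus strand of chromosome 1 from 185313319 to 185313385, where it is intronic in 2010103J01Rik, a noncoding gene, and lies opposite an intron of Iars2. Mir215 follows it 195 bases away, from 185313581 to 185313692, in an exon of 2010103J01Rik. Mir122 (ENSMUSG00000065402.1) lies in an exon of a long noncoding RNA.

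The depth was 2764276 counts on the own strand of miRNA genes in replicate 1 and 3946444 in replicate 2. Levels are counts per 1000000 of these (CPM), so that 1 count equals 0.362 CPM in the first replicate and 0.253 CPM in the second. A count of 0 is bounded by 3 counts, or 1.09 and 0.760 CPM. Intervals are exact Clopper-Pearson 95% intervals, and these and the floors cover counting error only. A miRNA read spans the whole mature molecule, so CPM of different miRNAs were compared without a length correction, while ligation preferences act on each miRNA. Only reads placed at a single position were counted, and 32.7% and 33.4% of all reads matched several positions. The hindbrain miRNAs Mir10a and Mir10b, of the Hox clusters, had 26113 ± 330 and 15264 ± 1037 CPM (SD, n = 2), and the neuronal genes Mir137 and Mir153 had 3303 ± 56.2 and 1465 ± 211 CPM. Among further neural markers, Mir9-3 had 382 ± 21.9 CPM, while Mir9-2 and the Mir124a copies were at 9.93 CPM or less. These miR-9 and miR-124 genes each share sequence with copies of their own family and lose reads that match several. In whole tissue, fewer cells of a type and less RNA per cell cannot be told apart.

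Mir375 was among the more abundant miRNA genes of the hindbrain, with 0.169% of the counts in replicate 1 and 0.138% in replicate 2. By reads placed at a single position, the gut and liver members were 1 to 3 orders of magnitude below it. Mir375 had 4664 counts in replicate 1 and 5445 in replicate 2, or 1687 CPM (interval 1639 to 1736) and 1380 CPM (1343 to 1417). Its mean was 1533 ± 217 CPM (SD, n = 2), which placed it at rank 85 of 1973 genes, above 95.7% of them. It ranked 82 in replicate 1 and 91 in replicate 2, so its place among the abundant miRNAs was close in both libraries. Only 1 read in all lay on the strand opposite to a member, at Mir375 in replicate 1.

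**Figure D1:**
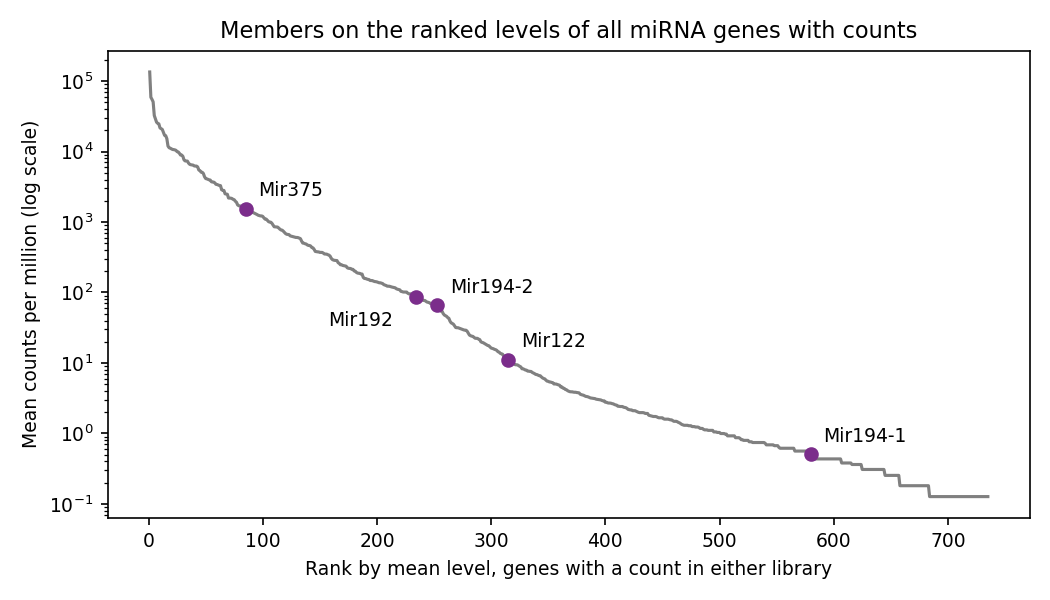
Mean level of each miRNA gene with a count in either library (CPM, log axis) against its rank, as a grey line, with the 5 members as points. Mir375 sits at rank 85, Mir192 and Mir194-2 at ranks 234 and 253, Mir122 at rank 315 and Mir194-1 at rank 580.

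Mir192, a miRNA of intestinal, hepatic and renal epithelium, had 247 counts in replicate 1 and 322 in replicate 2. This gave 89.4 CPM (78.6 to 101) and 81.6 CPM (72.9 to 91.0), with a mean of 85.5 ± 5.49 CPM (SD, n = 2) at rank 234. Its level was low but far above the floor of a single library.

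Mir194-2, the partner of Mir192 on chromosome 19, had 189 and 251 counts in replicates 1 and 2. The levels were 68.4 CPM (59.0 to 78.8) and 63.6 CPM (56.0 to 72.0), with a mean of 66.0 ± 3.37 CPM (SD, n = 2) at rank 253. Mir194-1, the copy on chromosome 1, had 0 counts in replicate 1 and 4 in replicate 2, or 1.01 CPM (0.276 to 2.60). Nearly all miR-194 counts that could be assigned to a single copy were therefore those of Mir194-2. In replicate 1 Mir194-2 was at least 63.0-fold higher than Mir194-1, taking 3 counts for the 0, and in replicate 2 it was 62.8-fold higher (interval 24.2 to 232). Reads of the shared 22 bases shown above are in neither value, so total miR-194 was not measured and could be higher.

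Mir122, the hepatocyte miRNA, had 34 counts in replicate 1 and 39 in replicate 2. This was 12.3 CPM (8.52 to 17.2) and 9.88 CPM (7.03 to 13.5), with a mean of 11.1 ± 1.71 CPM (SD, n = 2) at rank 315. A count of 10 in both libraries was reached by 4 of the 5 members, and by 371 of the 1973 genes, while 1238 had no count in either library.

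The order of the levels was Mir375, Mir192, Mir194-2, Mir122 and Mir194-1 in both libraries. Reads of the 22 bases shared by the Mir194 copies are not in these levels, so either copy could stand higher. The ranges of the libraries did not overlap between any neighbours in this order. By counting error alone, the intervals of Mir192 and Mir194-2 touched in replicate 1, where the upper end of Mir194-2 was 78.8 CPM and the lower end of Mir192 was 78.6 CPM, and were apart in replicate 2. With 2 libraries an exact two-sided test over the samples, by flipping signs, cannot give a p below 0.5, so no such test was run and the order is given as a description.

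**Figure D2:**
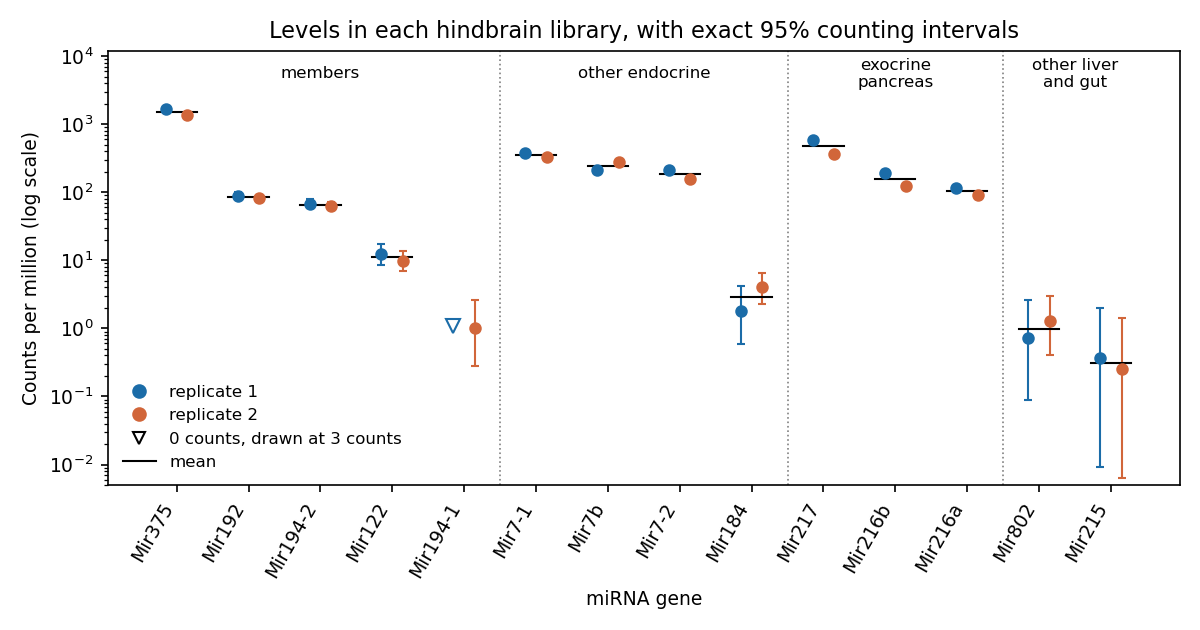
Level (CPM, log axis) of each member and of the other endocrine, exocrine pancreas, and liver and gut miRNAs, with a point for each library, its exact 95% counting interval and the mean as a bar. Mir375 stands above all other genes drawn, and Mir194-1 in replicate 1, with 0 counts, is drawn as an open triangle at 3 counts.

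Set against each gut and liver member within a library, Mir375 was higher by similar factors in both. It exceeded Mir192 by 18.9-fold in replicate 1 (interval 16.6 to 21.5) and 16.9-fold in replicate 2 (15.1 to 19.0), a mean of 17.9 ± 1.39 (SD, n = 2). Against Mir194-2 the ratio was 24.7 (21.3 to 28.7) and 21.7 (19.1 to 24.7), a mean of 23.2 ± 2.11 (SD, n = 2). Against Mir122 it was 137 (98.0 to 198) and 140 (102 to 197), a mean of 138 ± 1.72 (SD, n = 2). For each of these 3 genes the intervals of the ratio overlapped between the libraries. Against Mir194-1 it was at least 1555-fold in replicate 1, with 3 counts for the 0, and 1361-fold in replicate 2 (531 to 4998). The 4 gut and liver members together had 170 CPM (replicate 1) and 156 CPM (replicate 2), and Mir375 exceeded their sum by 9.92-fold (9.02 to 10.9) and 8.84-fold (8.13 to 9.62). Mir375 made up 90.8% and 89.8% of the counts of all 5 members. Reads shared by the Mir194 copies are not counted. With them, the ratios to these copies and to the sum, and the share of Mir375, could be lower.

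Among the gut and liver genes, the partners on chromosome 19 had nearly the same ratio in both libraries. Mir192 exceeded Mir194-2 by 1.31-fold in replicate 1 (1.08 to 1.59) and 1.28-fold in replicate 2 (1.08 to 1.52). Mir192 exceeded Mir122 by 7.26-fold (5.06 to 10.7) and 8.26-fold (5.91 to 11.8). Mir194-2 exceeded Mir122 by 5.56-fold (3.84 to 8.26) and 6.44-fold (4.58 to 9.27). All of these intervals overlapped between the libraries. With the reads shared by the Mir194 copies, Mir192 over Mir194-2 could be lower and Mir194-2 over Mir122 higher. These counts therefore do not settle which of the partners is higher.

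**Figure D3:**
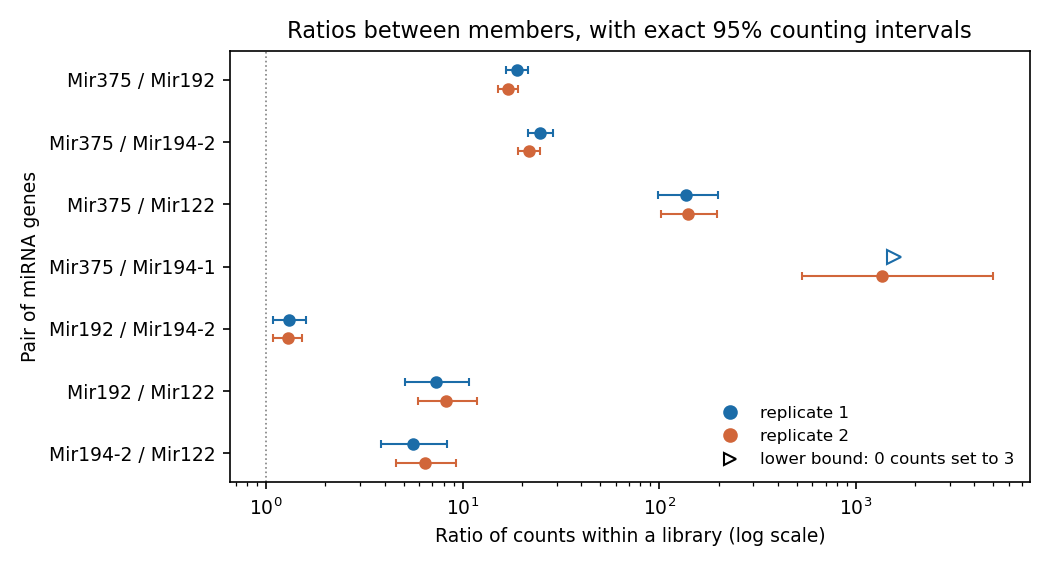
Ratio of counts between pairs of members within each library (log axis), with exact 95% counting intervals and a dotted line at equal counts. The open triangle is the lower bound of 1555 for Mir375 over Mir194-1 in replicate 1, and Mir192 over Mir194-2 lies at 1.31 and 1.28.

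By reads placed at a single position, the pair on chromosome 1 had very few counts, in contrast to the pair on chromosome 19. Reads shared by the Mir194 copies are left out, so Mir194-1 could stand higher. Mir215, which carries the same seed as miR-192-5p, had 1 count in each library, or 0.362 and 0.253 CPM. Mir192 was 247-fold higher in replicate 1 (43.9 to 9795) and 322-fold higher in replicate 2 (57.4 to 12757). The hairpins of Mir192 and Mir215 shared at most 10 bases in a row, so reads of these genes can be told apart. Mir802, a further liver miRNA, had 2 and 5 counts, or 0.724 and 1.27 CPM. Of 6 liver and gut genes present, 3 reached 10 counts in both libraries, and the list as a whole held 0.0171% (interval 0.0156% to 0.0187%) and 0.0158% (0.0145% to 0.0170%) of the counts. These shares also leave out the reads shared by the Mir194 copies.

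By reads placed at a single position, the other endocrine miRNAs were lower than Mir375, at 351 CPM or less on average. The miR-7 genes, known from islet and neurosecretory cells, led with Mir7-1, which lies in an intron of Hnrnpk. Levels of Mir7-1 were 375 CPM in replicate 1 and 328 in replicate 2, Mir7b had 212 and 283 CPM, and Mir7-2 had 210 and 156 CPM. The hairpins of Mir7-1 and Mir7-2 share a run of 24 bases that holds miR-7a-5p, so reads that match both are in neither value. Mir375 exceeded Mir7-1 by 4.50-fold (4.21 to 4.82) and 4.21-fold (3.96 to 4.47). Mir184, which has been described in islets and is abundant in lens and cornea, had 5 and 16 counts, or 1.81 and 4.05 CPM. Of 5 endocrine genes present, 4 reached 10 counts in both libraries, and Mir375 held 67.9% and 64.2% of the list's counts. With the reads shared by Mir7-1 and Mir7-2, the ratio of Mir375 to Mir7-1 and this share could be lower. Total miR-7a was not measured, so these counts do not settle whether it stands below miR-375.

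The exocrine pancreas miRNAs, known from acinar cells, were above every gut and liver member in both libraries, although in replicate 2 the counting interval of Mir216a (80.8 to 99.8 CPM) overlapped that of Mir192. Mir217 had 1606 counts in replicate 1 and 1442 in replicate 2, or 581 and 365 CPM. Mir216b had 192 and 124 CPM, and Mir216a had 116 and 90.0 CPM, so each gene was higher in replicate 1. These 3 genes lie on the plus strand of chromosome 11 between 28746191 and 28763835, and all 3 reached 10 counts in both libraries. Together they exceeded the sum of the 4 gut and liver members by 5.23-fold (4.73 to 5.78) in replicate 1 and 3.71-fold (3.39 to 4.06) in replicate 2. The gut and liver counts leave out reads shared by the Mir194 copies. Mir375 exceeded Mir217 by 2.90-fold (2.74 to 3.08) and 3.78-fold (3.56 to 4.0), and here the intervals of the libraries were apart. The most abundant of this list, miR-217, has its own seed in the RefSeq table.
miR-217-5p: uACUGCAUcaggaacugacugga

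None of the 4 tested members differed between the libraries by 2-fold or more. For each gene the counts of both libraries entered an exact binomial test, two-sided, with Benjamini-Hochberg adjustment over 393 genes whose mean reached 10 counts. Calls needed a minimum difference of 2-fold together with an adjusted p below 0.05. By this rule 0 of 4 members were called, against 3.56% of all tested genes (14 of 393). Mir375 was 1.22-fold lower in replicate 2, a log2 difference of -0.29 (adjusted exact binomial p = 5.94e-23). This p, like the intervals, covers counting error only and holds no estimate of the spread between pools, and it compares these libraries, not conditions. Without a minimum fold, 1 of the 4 members, Mir375, was past the threshold, where 51.7% of all tested genes were past it and 26.5% were past it and lower in replicate 2. The log2 differences of Mir192, Mir194-2 and Mir122 were -0.13, -0.11 and -0.32, with adjusted exact binomial p-values of 0.400, 0.574 and 0.521. Their median was -0.13, and the median over all tested genes was -0.04. Being past the threshold depends on depth: Mir122 had a wider difference than Mir375 but only 34 and 39 counts. The median absolute log2 difference over all tested genes was 0.24, and 57.3% of them had a smaller one than Mir375, 28.5% a smaller one than Mir192, 22.1% than Mir194-2 and 60.8% than Mir122. The coefficient of variation of Mir375 over the libraries was 14.2%. From edgeR, the common spread beyond counting noise over all tested genes was 17.4%. The first value includes counting noise and rests on 2 libraries, so these values are unlike measures and are not ranked. Mir194-1 had too few counts for the test.

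**Figure D4:**
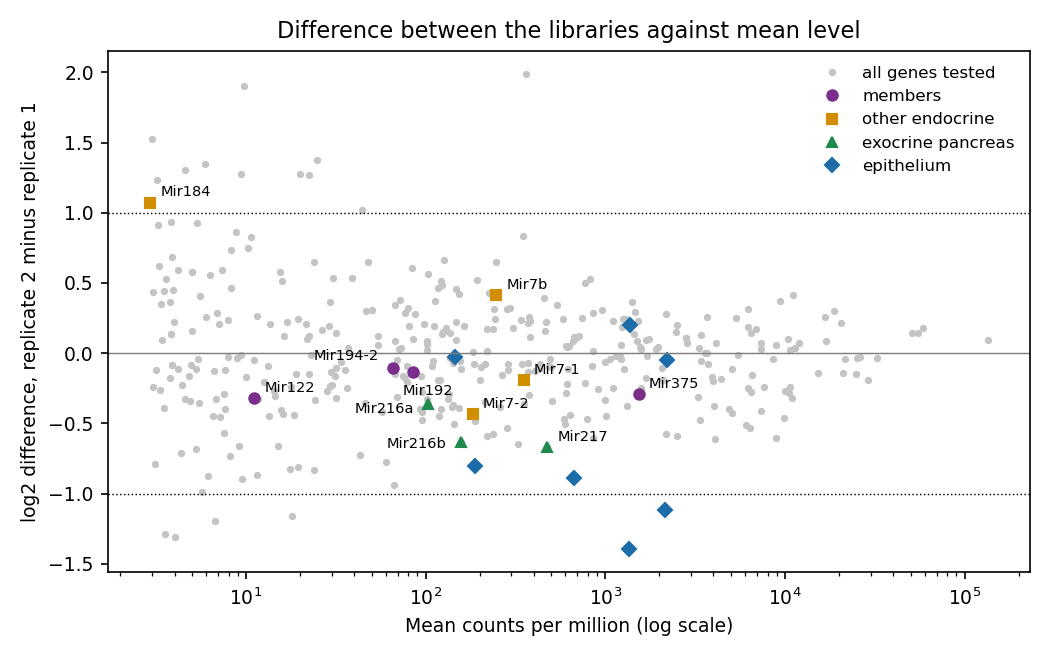
Difference between the libraries (log2, replicate 2 minus replicate 1) against the mean level (CPM, log axis) for all 393 tested genes, with dotted lines at 2-fold. The 4 tested members lie between -0.32 and -0.11, while Mir217 lies at -0.67 and part of the epithelium list (blue) is below -1.

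The other lists moved unequally between the libraries. All 3 exocrine pancreas genes were lower in replicate 2, with none at 2-fold and a median log2 difference of -0.63. Mir217 had the widest difference of the 3, at -0.67 (adjusted exact binomial p = 2.04e-36). In the endocrine list, Mir7-1 and Mir7-2 were lower in replicate 2 like Mir375, at log2 differences of -0.19 and -0.43, whereas Mir7b was higher at 0.41. Without a minimum fold, 4 of the 5 endocrine genes, 3 of the 3 exocrine pancreas genes and 0 of the 3 tested liver and gut genes were past the threshold, beside 51.7% of all tested genes. With 3 to 5 genes a list, and no test between the lists, these counts show no contrast between them.

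Marker miRNAs of other cell types were measured beside Mir375, since it is also known from epithelia. All 7 genes of the epithelium list were detected, with a summed level of 9660 CPM in replicate 1 and 6470 CPM in replicate 2, a 1.49-fold difference in the direction of that of Mir375. Mir200c fell from 1959 to 746 CPM and Mir429 fell from 2950 to 1362 CPM between replicate 1 and replicate 2, and both were called. Mir200b fell from 866 to 468 CPM and Mir141 from 238 to 136 CPM, and neither was called. Mir200a, with 146 and 143 CPM, Mir203, with 2230 and 2155 CPM, and Mir205, with 1271 and 1459 CPM, did not follow this difference. The 3 genes of the sensory organ list, led by Mir182 (11541 and 9776 CPM) and Mir183 (7585 and 5253 CPM), summed to 22128 and 17022 CPM, a 1.30-fold difference. The skeletal and heart muscle list, led by Mir206 and Mir208b, summed to 177 and 647 CPM, with Mir1a-1 and Mir133a-1 at 0. Both genes at 0, and Mir133b, share sequence with copies of their own family and lose reads that match several. The zeros are therefore no measure of absence, and the sum could be higher. In the muscle list 4 of 6 tested genes were called (Mir206, Mir208b, Mir499 and Mir133b), all higher in replicate 2. Over all tested genes 14 of 393 (3.56%) were called, 9 of them higher in replicate 2. The erythroid list summed to 298 and 355 CPM. Mir451a had 254 and 316 CPM, whereas Mir144 (23.2 and 23.1 CPM) and Mir486 (21.3 and 15.7 CPM) were not higher in replicate 2. Mir486 shares sequence with another hairpin, so its level could be higher. The part of these cell types in the level of Mir375, or in its difference between the libraries, was not tested.

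The miRNAs closest in level to each member over both libraries, by distance of log2(CPM + 1), were of varied kinds. Those nearest to Mir375 were Mir467d, of a rodent repeat family, at 1726 and 1452 CPM and Mir98, of the let-7 family, at 1792 and 1584 CPM. Mir33, which lies in a sterol regulator gene in mammals, at 81.8 and 87.7 CPM, and Mir34a, a target of p53, at 81.0 and 76.0 CPM, were nearest to Mir192. Mir194-2 was closest to Mir30c-1, at 70.5 and 63.6 CPM, and to Mir3475, at 70.5 and 68.4 CPM. Mir122 had Mir1968, at 13.0 and 10.4 CPM, and Mir147, at 11.2 and 10.9 CPM, as its nearest. Mir194-1 lay among genes with 0 counts in replicate 1 and 3 to 5 counts in replicate 2, such as Mir7067. Mir467d and Mir30c-1 share sequence with other hairpins and lose reads that match several, so their levels could be higher. With 2 libraries, closeness here is a likeness of level only.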

How the data were processed

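Small RNA from embryonic hindbrain was sequenced in 2 libraries of the same group, labelled as biological replicates from separate pools, with the same donor label on both. The p-values come from a test of read counts between the libraries, cover counting error only and do not hold the spread between pools. The deposited tables hold whole-number counts of reads per miRNA gene, aligned to mm10 and counted on GENCODE M4, according to their deposited description. Aligner and trimming are not given in the sources used. The files have no column names. The column taken as the gene's own strand was used, which was read from the layout and from its holding nearly all counts. Rows without a gene were excluded: in replicates 1 and 2, 15.7% and 16.2% of reads were unmapped, 32.7% and 33.4% matched several positions and 5.12% and 4.81% lay outside miRNA genes on their strand. Both arms of a hairpin are in each count.

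CPM, shares and within-library ratios were computed from the counts. Gene identifiers matched GENCODE M21 for 1894 of 1973 genes. Shared runs of 20 bases were searched over M21 miRNA hairpins only. Ratios have exact intervals from the split of the counts of both genes. With 1 group no edgeR contrast exists. The libraries were compared by the exact binomial test, with 0.5 added to each count in the fold. The test was checked on simulated counts that held counting error only, so this check does not cover the spread between pools. Alternatives were TMM (edgeR 4.0.16), DESeq2 1.42.0 size factors, both strands together, totals without the most abundant gene or genes that share sequence, other count minimums and folds, and leaving out each library. Python 3.11.15, SciPy 1.17.1, numpy 2.4.6, pandas 2.3.3, matplotlib 3.10.9 and R 4.3.3 were used. Named genes are the members, the endocrine, liver and gut, and exocrine pancreas lists, miRNAs within 10 kb of a member, the 2 nearest in level to each member and the 2 most abundant of each other list. Others (Mir137, Mir153, Mir9-2, Mir9-3, Mir124a, Mir200a, Mir200b, Mir200c, Mir141, Mir205, Mir1a-1, Mir133a-1, Mir133b, Mir499 and Mir486) were chosen after their values were seen. The members and lists were chosen with earlier results of these data known.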

Additional observations from a re-analysis of the deposited data

How the results depend on the processing

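Scaling cannot change the order of the members within a library, while their levels depended on the totals used. With TMM or DESeq2 size factors, and with both strands together, each member's level moved by less than 1 SD. Totals without the most abundant gene, Mir99a, raised the mean levels to 1772 CPM for Mir375, 98.8 for Mir192, 76.3 for Mir194-2 and 12.8 for Mir122. Each of these rises was more than 1 SD. Totals without genes that share sequence raised Mir192 to 92.9 CPM, also by more than 1 SD, and this alternative gives no value for the Mir194 copies. Adding 0.5 to both counts changed the ratio of Mir375 to Mir122 to 137. Without a minimum fold the number of genes called between the libraries was 203 in place of 14, and Mir375 was called at a log2 difference of -0.29. Other count minimums gave 12 to 19 called genes. Of the members, 4 were detected at minimums of 1, 5 and 20 counts. Depth limits Mir194-1, whose 0 and 4 counts give no stable level, and no mean ratio to it was computed. No paired analysis was possible because there is only 1 group.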
